A study of Homo sapiens with 12 samples.

Results

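ACLY and the genes of fatty acid and sterol synthesis were examined in 2 T-cell acute lymphoblastic leukemia (T-ALL) lines. The set holds 34 genes, chosen by name as the enzymes that make and use cytosolic acetyl-CoA for lipids together with their main regulators, and ACLY is the one the study picked out for its splicing. All 34 were found by Ensembl identifier among the 58288 genes listed in each of the 2 tables. The study asked how loss of SHQ1, a factor that assembles H/ACA ribonucleoproteins, alters RNA splicing in T-ALL cells. It selected ACLY among the most downregulated genes with altered splicing. In SHQ1-depleted HPB-ALL cells it reported more intron retention and less mature mRNA and protein for ACLY.

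Both lines, HPB-ALL and KOPTK1, are immortal cultures grown from human T-ALL. Each was infected with pLKO.1 lentivirus carrying an shRNA to SHQ1 (shSHQ1) or, as control, an shRNA to GFP (shGFP), and selected with 2 μg/ml puromycin. The labels give 48 h of culture with puromycin, whereas the methods give 48 h of culture followed by a further 48 h of selection. There were 3 libraries in each of the 4 groups, 12 in all, made from rRNA-depleted total RNA. Nothing in the labels says whether the 3 libraries of a group came from separate cultures.

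The values used here are the authors' average log2 CPM per gene, taken over the 6 libraries of a line with its control and shSHQ1 libraries together. CPM is the count of reads on a gene scaled to a fixed library size. RPKM is the CPM divided by the summed exon length of the gene in kilobases, so that levels of different genes can be set side by side. The per-library columns of the tables carry only numbers as names and match no sample label, so they were not used. No value could therefore be given for control and shSHQ1 cells separately, no spread between libraries is given, no test between groups or lines was made, and no total count is given for a labelled library. Every level below is an average over shSHQ1 and control cells of a line, with no replicate error, and whether neighbours in an order of levels differ beyond their spread was not tested.

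Acetyl-CoA for lipid synthesis leaves the mitochondrion as citrate and is released in the cytosol by ATP citrate lyase, the product of ACLY. Acetyl-CoA carboxylase and fatty acid synthase then build palmitate, which elongases and desaturases lengthen and desaturate. Alternatively acetyl-CoA enters the mevalonate pathway, which yields isoprenoids and, through squalene and lanosterol, cholesterol. Many of these genes are known targets of the sterol regulatory element binding proteins SREBP1 and SREBP2, which SCAP escorts to the Golgi apparatus when sterols are low and INSIG1 retains in the endoplasmic reticulum when sterols are high.

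Sequences before the gene starts are shown first. They were searched for the sterol regulatory element, to which the SREBPs bind, and for the CCAAT and GC box motifs of other factors. Sequence before RefSeq gene starts on GRCh38.p14 was at hand for 30 of the 34 genes (not for FASN, FDFT1, ACAT2 and SQLE). This gave 40 windows of the 250 bases before a start. CCAAT, the element bound by NF-Y, was searched on both strands, where its reverse complement reads ATTGG. It was present before at least 1 start of 22 of the 30 genes, or 73.3%, compared with 37.0% of all 27305 genes with such a window. Counted by window, the shares were 65.0% and 32.0%. It occurred in 12 of 14 sterol synthesis genes, 3 of 4 acetyl-CoA and NADPH supply genes, 4 of 7 fatty acid genes and 3 of 5 regulator and transport genes. GGGCGG, the core of the GC box, searched on both strands like the next motif, was present for 28 of the 30 genes (93.3%) and for 46.2% of all genes. A strict form of the sterol regulatory element, ATCAC and CCAC with any 1 base between them, was present for 1 of the 30 genes, SREBF2, and for 0.157% of all genes. The ends of these motifs can overlap one another. A match of letters is not a bound site, and looser forms of the sterol regulatory element were not searched. The 27305 genes were not limited to protein-coding or expressed genes. Whether the shares of CCAAT and GC box differ from those of expressed protein-coding genes was not tested.

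The 250 bases before the RefSeq start of ACLY that lies farthest upstream are shown because ACLY leads the set. The sequence is on the minus strand at chr17:41919023-41919272 of GRCh38.p14, directly upstream of the gene. Capitals mark CCAAT or its reverse complement, of which there are 2.
ACLY: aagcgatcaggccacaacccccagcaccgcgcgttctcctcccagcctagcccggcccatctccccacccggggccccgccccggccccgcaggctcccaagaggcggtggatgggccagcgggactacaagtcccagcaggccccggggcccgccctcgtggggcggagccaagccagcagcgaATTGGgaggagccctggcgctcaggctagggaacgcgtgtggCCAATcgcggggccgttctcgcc

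The next windows of 30 bases show the element before 7 genes that were at least 1.5-fold higher in HPB-ALL than in KOPTK1 and whose window lies outside the gene span of the tables, and before SREBF2 and INSIG1 for contrast. Of the other genes at 1.5-fold or more, FADS2, which had the highest ratio, and SREBF1 had no CCAAT in the windows searched. They lie on chr21:46228907-46228936 (LSS, minus strand), chr11:71448470-71448499 (DHCR7, minus), chr1:155308678-155308707 (FDPS, plus), chr5:43313550-43313579 (HMGCS1, minus), chr16:88663159-88663188 (MVD, minus), chr12:109573736-109573765 (MVK, plus), chr10:100347035-100347064 (SCD, plus), chr7:155297696-155297725 (INSIG1, plus) and chr22:41832961-41832990 (SREBF2, plus). Capitals mark the CCAAT element or its reverse complement, and in SREBF2 the sterol regulatory element. The element was found before the gene highest in HPB-ALL relative to KOPTK1 among the sterol genes (LSS) and before a gene at nearly equal levels (INSIG1).
LSS: cgcggcgctctgATTGGttgcgtgggcgtc
DHCR7: caggctcctcgaCCAATcacggggcgcgga
FDPS: ttcagcccttccATTGGtcgtccgtcacag
HMGCS1: agtttccttttgATTGGtagaagccggact
MVD: ggctcgcacgggCCAATcctgtggtagcgc
MVK: tcgcgcgctctgATTGGctggcctgaagta
SCD: aattcccttcggCCAATgacgagccggagt
INSIG1: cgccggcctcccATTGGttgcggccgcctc
SREBF2: atgacgcgccATCACCCCACgcaccgcttc

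The tables as a whole were checked in 3 ways. SHQ1, the gene targeted by the knockdown, had a mean RPKM of 59.5 in HPB-ALL and 43.2 in KOPTK1, which cannot check the knockdown since both groups are averaged. The T-lineage label was checked with 15 marker genes, of which 15 reached a mean RPKM of 1 in both lines, with summed RPKM of 1408 and 1570. Of 24 markers of B cells, myeloid cells, epithelium, fibroblasts, fat and liver, CD79A and COL1A1 reached 1 in both lines. CD79A, which encodes a B-cell receptor chain, was at 43.3 in HPB-ALL and 16.1 in KOPTK1, and the lipid-storing and lipid-secreting tissue markers stayed at or below 0.276. The tables were less alike in one direction than in the other. Of 8433 genes at 10 RPKM or more in HPB-ALL, 0 were more than 5-fold higher there than in KOPTK1, the largest ratio was 4.05, and 0 had a KOPTK1 level below 1. Of 8619 genes at 10 or more in KOPTK1, 122 were more than 5-fold higher there than in HPB-ALL, the largest ratio was 67.6, and 30 had an HPB-ALL level below 1. Whether the KOPTK1 libraries held RNA from HPB-ALL cells was not tested. The levels of KOPTK1 and every ratio between the lines given below rest on these tables.

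Nearly the whole pathway was expressed in both lines. A mean RPKM of at least 1 was reached by 33 of the 34 genes in HPB-ALL and by 33 in KOPTK1, compared with 61.3% and 62.3% of the 19677 protein-coding genes. The exception in both lines was ME1. A mean RPKM of at least 10 was reached by 26 genes in HPB-ALL and 24 in KOPTK1. The median of the 34 genes was 24.9 in HPB-ALL and 18.6 in KOPTK1, whereas expressed protein-coding genes had medians of 11.9 and 11.3. Together the 34 genes took up 4681 CPM, or 0.467% of the summed CPM, in HPB-ALL and 3378 CPM, or 0.336%, in KOPTK1. The order of the 34 RPKM values was alike in the lines, giving a Spearman's rho of 0.972 (n = 34 genes). Across 11763 protein-coding genes at 1 or more in both lines it was 0.951, and genes are not independent replicates.

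**Figure D1:**
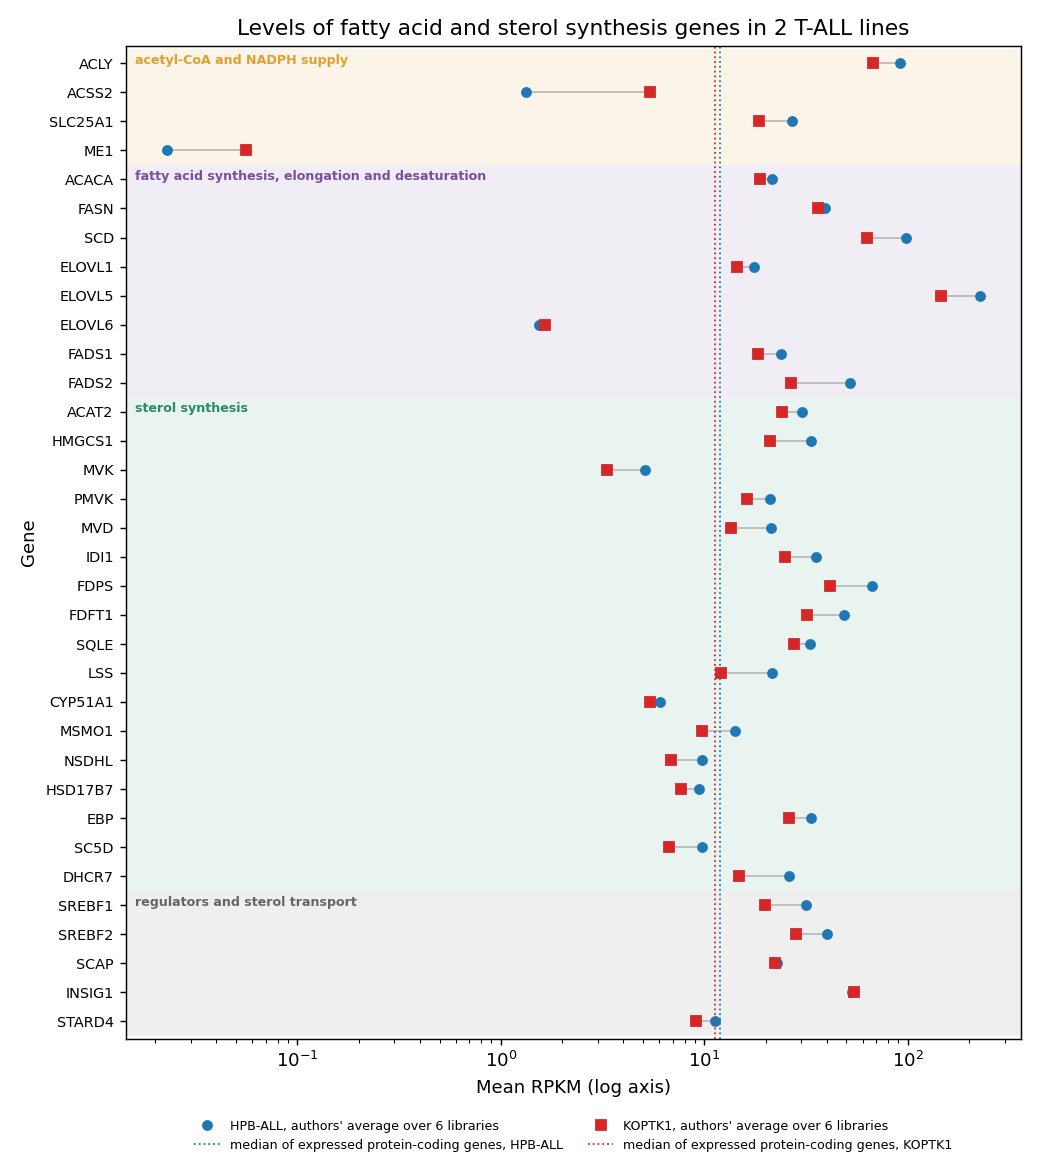
Mean RPKM (log axis) of the 34 genes in HPB-ALL (circles) and KOPTK1 (squares), each point being the authors' average over the 6 libraries of a line, with no replicate error; dotted lines are the medians of expressed protein-coding genes. ELOVL5 was the highest gene in both lines at 226 and 145, ME1 the lowest at 0.0229 and 0.0562, and ACSS2 was the gene with the widest gap in favour of KOPTK1.

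Among the genes that supply acetyl-CoA and NADPH, ACLY stood far above the others. ACLY (ENSG00000131473.16, GRCh38 chromosome 17, 41866908 to 41919022, minus strand, 29 separate exon blocks) had a mean RPKM of 91.6 in HPB-ALL and 67.7 in KOPTK1. It ranked 3 of the 34 genes in HPB-ALL and 2 in KOPTK1, and 395 and 562 among protein-coding genes. Its level in HPB-ALL was 1.35-fold that in KOPTK1. SLC25A1, the mitochondrial carrier that exports citrate, the substrate of ACLY, was at 27.0 and 18.5, a ratio of 1.46.

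ACSS2 makes acetyl-CoA from acetate and so offers a route that does not need citrate. It went the opposite way, with a mean RPKM of 1.33 in HPB-ALL and 5.40 in KOPTK1, so that the KOPTK1 level was 4.07-fold higher. The log2 ratio of HPB-ALL over KOPTK1, -2.02, was above that of 0.527% of the protein-coding genes compared. In the order of the 34 RPKM values, ACSS2 ranked 33 in HPB-ALL and 30 in KOPTK1, far below ACLY. ME1, cytosolic malic enzyme, which supplies NADPH, had a mean CPM of 0.0772 in HPB-ALL and 0.189 in KOPTK1. These lie near the lowest value of each table, 0.0488 and 0.0669 CPM, so no ratio is given for ME1.

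Fatty acid genes carried the largest part of the reads of the set, 50.7% of its CPM in HPB-ALL and 49.6% in KOPTK1. Both chain-building enzymes differed little between the lines. ACACA, acetyl-CoA carboxylase 1, which commits acetyl-CoA to fatty acids, was at a mean RPKM of 21.5 and 18.8, and FASN, fatty acid synthase, at 39.2 and 36.0, with ratios of 1.14 and 1.09. These are inside the middle 50% of protein-coding genes, whose log2 ratios run from -0.188 to 0.312 around a median of 0.0740.

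The desaturases of the set differed more. SCD, the desaturase that makes oleate, was at 97.6 in HPB-ALL and 63.2 in KOPTK1, a ratio of 1.54. FADS2, which carries out the delta-6 step for polyunsaturated chains, was at 52.1 and 26.6, and its ratio of 1.96 was the highest of the set. FADS1, the delta-5 desaturase next to it on chromosome 11, was at 23.8 and 18.4, a ratio of 1.29. The exons of FADS1 and FADS2 share 142 bases on opposite strands.

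The elongases lay far apart in level. ELOVL5, which elongates polyunsaturated chains, had the highest RPKM in both lines at 226 and 145, with a ratio of 1.56, and ranked 88 and 178 among protein-coding genes. ELOVL1, for saturated very long chains, was at 17.5 and 14.4. ELOVL6, which turns palmitate into stearate, was at 1.55 and 1.65, the lowest of the fatty acid genes, with a log2 ratio of -0.09.

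The 17 sterol synthesis genes of the set were higher in HPB-ALL. All 17 had a level above that of KOPTK1, with ratios from 1.12 to 1.77 and a median of 1.45, and 7 of the 17 reached 1.5-fold. Of protein-coding genes at 1 RPKM or more in both lines, 58.1% were higher in HPB-ALL and 9.54% reached 1.5-fold. Their median ratio was 1.05. At the entry, ACAT2, which joins 2 acetyl-CoA, was at a mean RPKM of 30.2 in HPB-ALL and 24.2 in KOPTK1, and HMGCS1, HMG-CoA synthase, at 33.6 and 20.9. In the mevalonate part, MVK (mevalonate kinase) was the lowest sterol gene at 5.14 and 3.32, followed along the path by PMVK at 21.0 and 16.2, MVD at 21.2 and 13.5, and IDI1, the isomerase of isopentenyl diphosphate, at 35.6 and 24.95. The low level of MVK thus sat between neighbouring steps that were several times higher in RPKM.

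FDPS, farnesyl diphosphate synthase, at the branch to isoprenoids, was the highest of the 17 sterol genes in both lines at 67.1 and 41.3, a ratio of 1.62. FDFT1, squalene synthase, which commits the pathway to sterols, was at 48.5 and 32.1. SQLE, squalene epoxidase, a rate-limiting oxygenase, was at 33.3 and 27.6 with a ratio of 1.21. LSS, lanosterol synthase, was at 21.5 and 12.1, and its ratio of 1.77 was the highest of the sterol genes. Thus SQLE and LSS, which catalyse consecutive steps, differed in their ratios between the lines.

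After lanosterol the levels were lower. CYP51A1, the lanosterol demethylase, was at 6.07 and 5.40, the smallest ratio of the sterol genes at 1.12. MSMO1 was at 14.2 and 9.72, NSDHL at 9.75 and 6.87, HSD17B7 at 9.38 and 7.72 and SC5D at 9.73 and 6.73. EBP, the sterol isomerase, at 33.3 and 26.2, and DHCR7, the last reductase on one route to cholesterol, at 26.0 and 14.8, were higher. DHCR7 had a ratio of 1.76, next to LSS.

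Of the regulators, both SREBF genes were higher in HPB-ALL and the sterol sensors were nearly level. SREBF1, which encodes SREBP1, had a mean RPKM of 31.5 in HPB-ALL and 19.9 in KOPTK1, a ratio of 1.58. SREBF2, which encodes SREBP2, was at 40.2 and 28.3, a ratio of 1.42. SCAP was at 22.8 and 22.3 and INSIG1 at 53.1 and 54.3, ratios of 1.02 and 0.977, and SCAP was the 1 gene whose direction turned when the tables were scaled to the genes at 10 RPKM or more in both lines. STARD4, which carries sterols between membranes, was at 11.3 and 9.08. INSIG1 was the only regulator with a lower level in HPB-ALL, by a log2 ratio of -0.03.

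SREBF1 and SREBF2 each hold a microRNA of the miR-33 family, known to act on cholesterol efflux genes, on the same strand and between exon blocks (the 17th gap from the 5′ end in each gene). The mature 5p sequences are shown because the host genes differed in ratio while the family shares its seed, bases 2 to 8, in capitals. hsa-miR-33a-5p lies at chr22:41900949-41900969 (plus strand) and hsa-miR-33b-5p at chr17:17813897-17813916 (minus strand) of GRCh38.p14.
hsa-miR-33a-5p: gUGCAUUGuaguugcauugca
hsa-miR-33b-5p: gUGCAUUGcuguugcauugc

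In these libraries of long RNA, the hairpin MIR33A had a mean CPM of 0.0772 in HPB-ALL and 0.117 in KOPTK1, and MIR33B one of 0.262 and 0.326. The values of MIR33A are near the lowest of the tables, 0.0488 and 0.0669 CPM. Those of MIR33B are low but lie above these minimums. Divided by lengths of 69 and 96 bases, they give an RPKM of 1.12 and 1.70 for MIR33A and 2.73 and 3.40 for MIR33B. They say nothing of the mature microRNAs, which such libraries do not capture.

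Set across the 2 separately normalized tables, the level of the lipid genes was higher in HPB-ALL for 30 of the 33 genes at 1 or more in both lines, whereas 58.1% of 11763 protein-coding genes were higher there. The median ratio was 1.42 for the 33 genes and 1.05 for protein-coding genes. At least 1.5-fold higher in HPB-ALL were 11 of the 33, or 33.3%, against 9.54% of protein-coding genes and 8.47% of all 22430 genes. At least 1.5-fold lower was 1 of the 33, ACSS2, against 7.82% of protein-coding genes and 11.9% of all genes. Among the 24 genes at 10 or more in both lines, 10 were at least 1.5-fold higher and 0 lower, against 4.8% and 3.52% of protein-coding genes and 4.7% and 5.03% of all genes. The 11 genes were FADS2, LSS, DHCR7, FDPS, HMGCS1, SREBF1, MVD, ELOVL5, MVK, SCD and FDFT1. Just inside the limit was FDFT1 at 1.51 and just outside it SLC25A1 at 1.46. With the median ratio of genes at 10 or more in both lines set to 1, the count fell to 7. These are ratios of 1 average per line, and no test between the lines was made. Each table holds 1 line, so the line and the normalization of its table cannot be told apart. The averages also include shSHQ1 cells, and whether the knockdown acted alike in both lines was not tested. Of genes at 10 RPKM or more in HPB-ALL, 0 were over 5-fold higher there, against 122 the other way. Whether RNA from HPB-ALL cells in the KOPTK1 libraries altered these ratios was not tested.

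**Figure D2:**
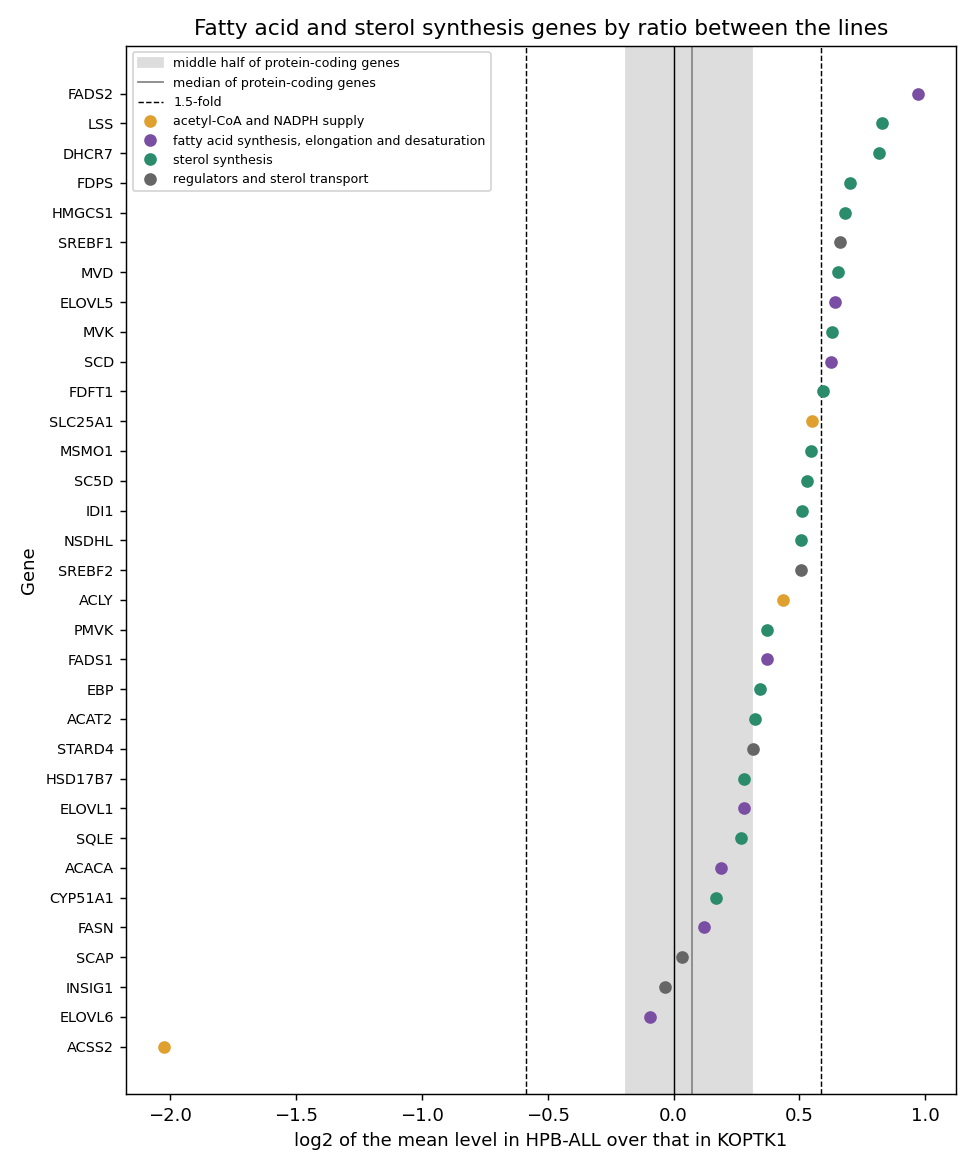
log2 ratio of the mean levels, HPB-ALL over KOPTK1, for the 33 genes at 1 RPKM or more in both lines, in order (ME1 is left out), coloured by role; the grey band spans the quartiles of 11763 protein-coding genes, the grey line their median, and dashed lines mark 1.5-fold. All but ACSS2, ELOVL6 and INSIG1 lie above 0, and 23 of the 33 lie above the grey band.

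**Figure D3:**
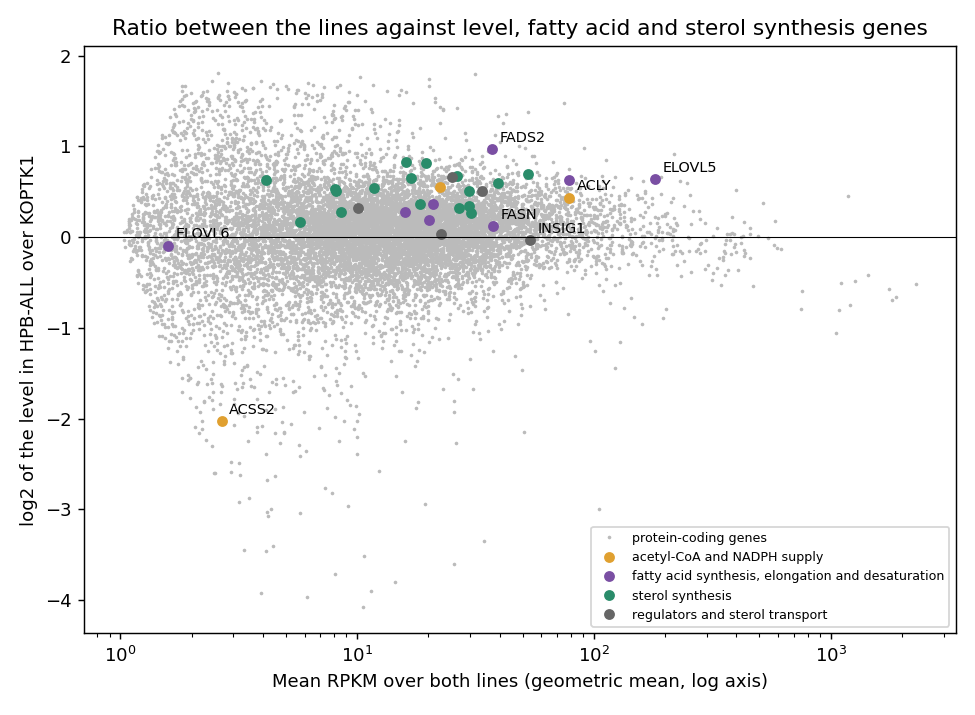
log2 ratio of HPB-ALL over KOPTK1 against the geometric mean RPKM of both lines (log axis), with protein-coding genes in grey and the 33 genes coloured by role. Grey points reach farther below 0 than above it, and the lipid genes lie mostly in the upper part of the cloud. Those lowest in level, ELOVL6 and ACSS2, lie below 0, ACSS2 far below.

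By role, the median ratio was 1.45 for the 17 sterol genes, 1.25 for the 8 fatty acid genes, 1.25 for the 5 regulator and transport genes and 1.35 for the 3 supply genes compared. The count at 1.5-fold or more was 7, 3, 1 and 0 in the same order, against 9.54% of protein-coding genes. Genes of 1 pathway are not replicates of a condition, so these are descriptions.

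Another 48 genes of lipid synthesis, its regulation and sterol transport were listed by name. Of these, 39 reached a mean RPKM of 1 in HPB-ALL and 41 in KOPTK1. The highest in both lines were PGD, which makes NADPH in the pentose phosphate pathway (119 and 106), TECR, the reductase of very long chain elongation (89.7 and 71.4), and LBR, a nuclear envelope protein and sterol reductase (66.1 and 71.8). Of the 39 at 1 or more in both lines, 31 were higher in HPB-ALL, against 58.1% of protein-coding genes. At least 1.5-fold higher were 6 and lower 1 (ABCG1), against 9.54% and 7.82% of protein-coding genes, and the median ratio was 1.23. The minimum of 1 in both lines left out ELOVL2 and ABCA1, which were below 1 in HPB-ALL and at 9.32 and 2.65 in KOPTK1.

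Some levels are uncertain because reads may be shared. The exons of 13 of the 34 genes overlap those of a gene on the opposite strand, and the TruSeq RNA kit named in the methods does not mark strand, so reads from such a pair cannot be told apart there. The shared part exceeds 10% of exon bases in ACAT2 (12.5% with TCP1 and 34.8% with a gene listed without a symbol), FDPS (28.9% with RUSC1-AS1), HMGCS1 (19.9%) and, over 2 partners together, LSS. Pseudogenes by name exist for 6 of the genes. HSD17B7P2 had a CPM equal to 25.4% of that of HSD17B7 in HPB-ALL and 55.0% in KOPTK1, and how the counting divided reads between such copies is not given in the sources used here. By length, the 34 genes hold between 4 (ELOVL6) and 60 (ACACA) separate exon blocks, with a median of 10.5, compared with 9 for expressed protein-coding genes.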

How the data were processed

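RNA-seq was deposited for 12 libraries, 3 of control (shGFP) and 3 of shSHQ1 cells of HPB-ALL and of KOPTK1, as 1 table per line of gene counts with summary columns. For what the authors ran, the submitters' processing notes list Trimmomatic 0.36, STAR 2.5.4b, Picard 2.18.7, featureCounts 1.6.2, edgeR 3.22.3 and hg38, with no order or role; the methods name another build for the junction analysis, which is not used here. From each table the deposited column of log2 CPM, the authors' average over the 6 libraries of a line, and the exon length were used. The files' 12 per-library columns are named by numbers that match no sample label and were not used. The 4 columns per table of the authors' own comparison (fold change, F, p-value and false discovery rate) were not used. The planned tests of shSHQ1 against control therefore could not be made, and no depth is given for a labelled library.

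RPKM was computed as CPM per kilobase of exon. The tables were normalized separately, so ratios between the lines are descriptions. A gene counted as expressed at a mean RPKM of at least 1, and 1.5-fold was the limit used for ratios. Low values end in a shared minimum for 13164 genes in HPB-ALL and 12035 in KOPTK1, as the authors' edgeR values do for genes with almost no reads. Symbols were matched for 55902 of 58288 identifiers (95.9%), gene types came from the GENCODE annotation by identifier, and promoter and microRNA sequences came from RefSeq (GRCh38.p14). All 34 genes are named. Further pathway genes were to be named where highest or lowest 3 of their list; others are said to be chosen after their values were seen, and some listed genes are not reported here. The genes and lists were chosen with earlier results of these data known. Alternatives were 3 scalings between the tables, CPM without length, protein-coding CPM and other expression minimums. Scripts used Python 3.11.15, pandas 2.3.3, numpy 2.4.6, scipy 1.17.1 and matplotlib 3.10.9, and the ratio summary was tested on simulated data.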

Additional observations from a re-analysis of the deposited data

How the results depend on the processing

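No paired analysis was possible because no column of a single library could be tied to a group or a replicate number. For the same reason the planned comparison of shSHQ1 with control in each line and its alternatives (pseudocounts, low-value filters, centring, DESeq2, leaving out each library, replicate block), and the difference of the knockdown effect between the lines, were not run. The median log2 ratio of HPB-ALL over KOPTK1 for the 33 genes, 0.51 as deposited, was 0.52 with the median ratio of all genes at 1 RPKM or more set to 1, 0.45 with that of genes at 10 or more, and 0.49 with each table rescaled to its protein-coding total. The number at least 1.5-fold higher, 11, became 11, 7 and 10 in the same order, the number lower stayed at 1, and the number with a higher level, 30, became 30, 29 and 30. Of 99 ratios of single genes under these scalings, 94 kept their side of 1.5-fold and 5 no longer reached it. With the protein-coding total as scale the median RPKM of the 34 genes moved from 24.9 to 26.8 in HPB-ALL and from 18.6 to 20.2 in KOPTK1. The levels are averages, and the spread between libraries was not used here.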

Other observations

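Genes of sterol efflux and of 1 further elongase, chosen after their values were seen, were higher in KOPTK1, opposite to most genes of sterol synthesis. ABCA1 and ABCG1, transporters that move cholesterol out of the cell, had a mean RPKM of 0.530 and 4.22 in HPB-ALL and 2.65 and 8.08 in KOPTK1. NR1H2, which encodes the oxysterol receptor LXR-beta that is known to drive them, was at 17.2 and 23.3, whereas NR1H3, which encodes LXR-alpha, was at 2.66 and 1.88. ELOVL2, an elongase of polyunsaturated chains, was at 0.399 in HPB-ALL and 9.32 in KOPTK1, while ELOVL5 was higher in HPB-ALL. All are averages over shSHQ1 and control cells from tables normalized separately, and no test between the lines was made. Wide gaps toward KOPTK1 were not particular to these genes. Of all genes at 10 RPKM or more in KOPTK1, 122 were over 5-fold higher there. Of those at 10 or more in HPB-ALL, 0 were over 5-fold higher in HPB-ALL.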
